A study of Arabidopsis thaliana with 8 samples.

Results

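Transcripts of 6 genes were lower in lower inflorescence stems of the Arabidopsis line SND2-OV(A) than in wild type stems at both 4 and 8 weeks of age. The genes were AT3G01345, AT3G50380, MRD1 (AT1G53480), its chromosome neighbour HEI10 (AT1G53490), AT2G14878 and AT5G03090, 1 probe each, among 37685 probes of which 7628 could be given a gene name. They were chosen on the log2 ratios of the line over wild type at these ages, so the ratios themselves are given as a description. The limma fits per age cover all probes, the members included, but nothing is read from their p-values for the members. SND2-OV(A) is a homozygous line in the Col-0 ecotype that expresses SND2 from a constitutive promoter, and the comparator was untransformed Col-0 of the same age. It is a single line, so an effect of SND2 and any other difference that this line carries cannot be told apart. At each age 3 biological replicates, each a pool of plants, were hybridized to 4 two-colour arrays. The RNA of replicate 1 was run on a dye-swapped pair, and the line was labelled with Cy3 in replicate 2 but with Cy5 in replicate 3. The labels give hygromycin selection of the transgenic seed for both ages, whereas the methods give it for the 8-week plants only. The arrays yield ratios without levels, so the stem tissue could not be checked by marker genes, and fewer cells of a type cannot be told apart from less RNA per cell.

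SND2 is a NAC-domain transcription factor that acts in fibres of the stem, below the NAC regulator SND1, in the formation of secondary walls. The genes lowered at both ages are not known as wall genes. HEI10 is a RING-domain protein that promotes crossovers between homologous chromosomes in meiosis, MRD1 takes its name from its lower transcript level in mto1, a mutant that over-accumulates methionine, and AT3G50380 is related to the yeast vacuolar sorting protein VPS13, which transfers lipids between membranes. AT2G14878 is annotated as a non-coding RNA, and AT3G01345 and AT5G03090 are protein-coding genes without a symbol.

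AT3G01345 had the lowest mean of all probes on the array at both ages. At 4 weeks its log2 ratios were -3.53 and -3.13 on the dye-swapped arrays of replicate 1, -4.38 in replicate 2 and -3.18 in replicate 3. At 8 weeks they were -2.26 and -2.44 on the pair, -3.28 in replicate 2 and -2.99 in replicate 3. All 8 arrays lay far below 0 in both dye orientations, and the ranges of the ages overlapped. The mean ratio was -3.63 ± 0.66 (SD, n = 3) at 4 weeks, which is 12.4-fold lower in the line, and -2.87 ± 0.48 (n = 3) at 8 weeks, which is 7.33-fold lower.

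AT3G50380, the VPS13-related gene, was the second lowest probe at 4 weeks. Its 4-week arrays were close together, at -2.74 and -2.62 on the pair, -2.53 in replicate 2 and -2.81 in replicate 3. The 8-week arrays read -1.16 and -2.55 on the pair, -2.69 in replicate 2 and -2.10 in replicate 3. The array of the pair in which the line carried Cy3 was the highest of the 8, and its gap to the swapped array was 1.40, against a median gap of 0.248 over all probes at 8 weeks. The mean was -2.68 ± 0.14 (SD, n = 3; 6.39-fold lower) at 4 weeks and -2.22 ± 0.43 (n = 3; 4.65-fold lower) at 8 weeks.

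MRD1 was the third lowest probe at 4 weeks and stayed in the same range at 8 weeks. The 4-week ratios were -2.81 and -2.02 on the pair, -2.76 in replicate 2 and -2.57 in replicate 3. The 8-week ratios were -2.07 and -1.93 on the pair, -2.38 in replicate 2 and -2.74 in replicate 3. The values of the ages overlapped, and no array was higher than -1.93. The mean was -2.58 ± 0.17 (SD, n = 3; 5.99-fold lower) at 4 weeks and -2.37 ± 0.37 (n = 3; 5.18-fold lower) at 8 weeks.

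The other members were lower by smaller factors. AT2G14878, the non-coding RNA, was the steadiest of them, with -0.83, -0.74, -0.59 and -0.63 on the 4-week arrays and -0.70, -0.62, -0.74 and -0.63 on the 8-week arrays, each in the order of the pair (line in Cy3, then in Cy5), replicate 2 and replicate 3. Its 8 arrays spanned 0.231, whereas the median span over all probes was 0.753. The mean was -0.67 ± 0.10 (SD, n = 3; 1.59-fold lower) at 4 weeks and -0.68 ± 0.06 (n = 3; 1.60-fold lower) at 8 weeks. The probe is listed by the study under AT2G14878 at 8 weeks but under AT2G14870 at 4 weeks, so which of these adjoining locus codes it measured is not settled here.

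AT5G03090 read -0.64, -0.67, -0.51 and -0.70 at 4 weeks and -0.88, -0.91, -1.19 and -0.67 at 8 weeks, in the same array order. The arrays of a pair differed by 0.024 at 4 weeks and by 0.026 at 8 weeks, less than the spread between replicates. The mean was -0.62 ± 0.10 (SD, n = 3; 1.54-fold lower) at 4 weeks, just past the limit of 1.5-fold, and -0.92 ± 0.26 (n = 3; 1.89-fold lower) at 8 weeks.

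HEI10 was uniform at 4 weeks and scattered at 8 weeks. The 4-week arrays read -0.65, -0.67, -0.66 and -0.63, and the 8-week arrays -0.66, -1.002, -0.10 and -1.80. Replicate 2 at 8 weeks was thus near 0 and replicate 3 was the lowest. The mean was -0.65 ± 0.01 (SD, n = 3; 1.57-fold lower) at 4 weeks and -0.91 ± 0.85 (n = 3; 1.88-fold lower) at 8 weeks. The 8-week mean rests on replicate 3, since it was -0.47 without that replicate, which is inside the 1.5-fold limit, and -1.31 without replicate 2.

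The study listed the HEI10 member probe at 4 weeks only, and it listed a second probe assigned to HEI10 at 8 weeks only. This second probe was more variable at 4 weeks. It read -1.17, -0.54, -1.52 and 0.28 at 4 weeks and -1.13, -1.26, -0.76 and -1.95 at 8 weeks, and was below 0 on 7 of 8 arrays. Its mean was -0.70 ± 0.91 (SD, n = 3) at 4 weeks, with -0.29 when replicate 2 was left out and -1.19 when replicate 3 was left out, and -1.30 ± 0.60 (n = 3) at 8 weeks. Both probes had their highest 8-week value in replicate 2 and their lowest in replicate 3.

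**Figure D1:**
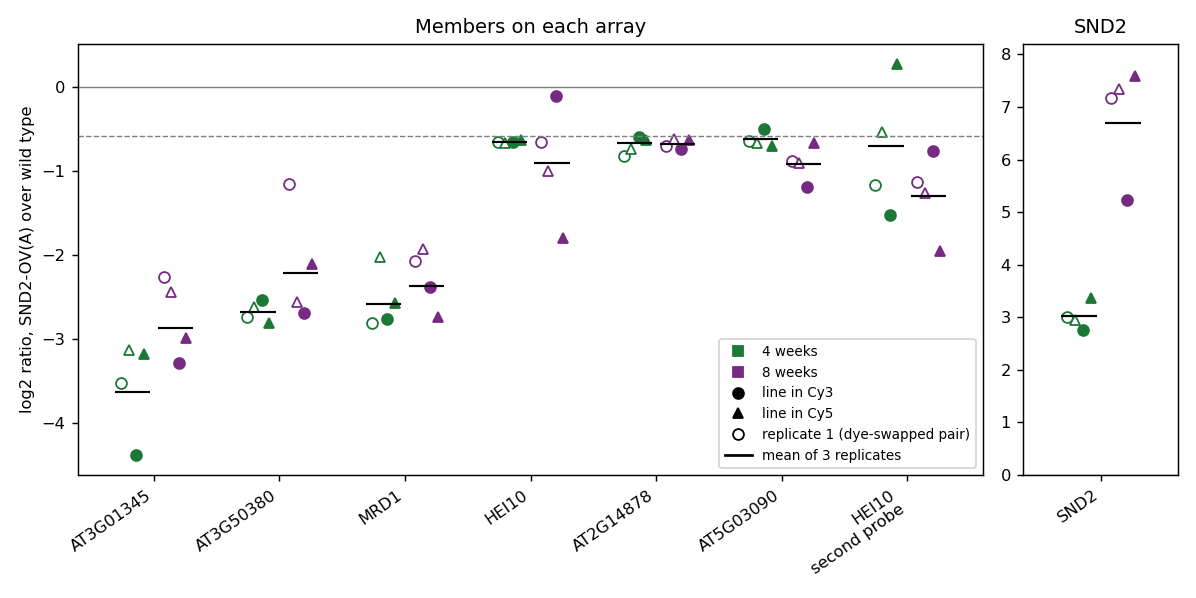
Log2 ratio of SND2-OV(A) over wild type (y axis) for each member, the second HEI10 probe and, on its own axis, SND2 (x axis), with 1 point per array coloured by age, shaped by dye and open for replicate 1. Bars are means of 3 replicates and the dashed line marks 1.5-fold lower. AT3G01345, AT3G50380 and MRD1 lie at -1.16 or lower on all 8 arrays, and AT2G14878 spans 0.231.

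The 6 members were below 0 on all 8 arrays, as were 0.507% of all probes (191 probes). A probe was called lower at both ages where its mean log2 ratio was more than 0.58 below 0, that is, over 1.5-fold lower, at 4 and at 8 weeks. This held for 44 probes, 0.117% of the 37685, and for 16 of the 7628 named probes, 0.21%. Since the members were chosen on this contrast, nothing is read from the comparison of these shares. Only 4 probes, 0.0106% of all, were over 1.5-fold lower on each of the 8 arrays, and all 4 were members (AT3G01345, AT3G50380, MRD1 and AT2G14878). The 38 other probes lower at both ages, among them the second HEI10 probe, had a median SD over replicates of 0.970 at 4 weeks and 0.921 at 8 weeks, against 0.121 and 0.401 for the members. Of these 38 probes, 6 were below 0 on all 8 arrays. The members come from the study's lists of changed genes on these same arrays, where a small spread helps a gene to be listed. Nothing is therefore read from their smaller SDs, nor from the 4 probes all being members. The named probe just inside the limit was AT3G50300, with -0.61 ± 1.25 (SD, n = 3) at 4 weeks and -0.62 ± 0.23 at 8 weeks, and the one just outside was AT2G42005, with -0.58 ± 1.22 and -0.63 ± 0.73.

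One 8-week array stood apart from the others, namely the array of the dye-swapped pair that had the line labelled with Cy5. Its SD over probes was 1.01, against 0.308 to 0.597 for the other 7 arrays, and 428 of its probes were below -5, whereas 4 probes were below -5 on any other array. On this array the 6 members lay between -2.55 and -0.62. Array medians ran from -0.112 to 0.063. Without that array 42 probes were lower at both ages.

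**Figure D2:**
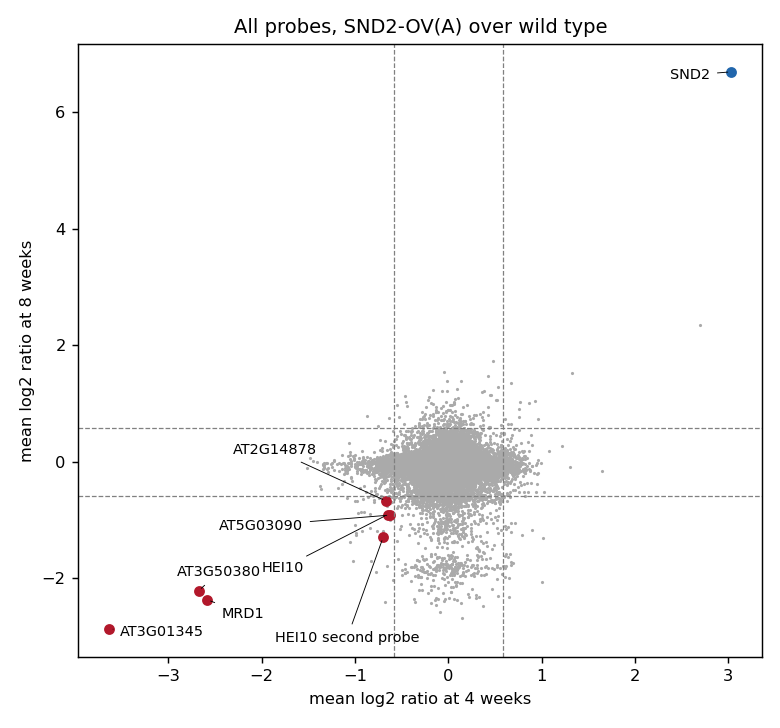
Mean log2 ratio at 4 weeks (x axis) against that at 8 weeks (y axis) for all 37685 probes (grey), the members and the second HEI10 probe (red) and SND2 (blue), with dashed lines at 1.5-fold. AT3G01345, AT3G50380 and MRD1 lie apart at the lower left, and the band of probes near -2 at 8 weeks holds probes that are far below 0 on the 1 wide array.

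Each member was below 0 in both dye orientations. Averaged over the 4 arrays with the line in Cy3 and over the 4 with the line in Cy5, AT3G01345 was at -3.36 and -2.93. AT3G50380 was at -2.28 and -2.52, and MRD1 at -2.51 and -2.31. Of the members lowered by smaller factors, AT2G14878 was at -0.72 and -0.65 and AT5G03090 was at -0.81 and -0.74. HEI10 was at -0.52 with the line in Cy3 and -1.03 with the line in Cy5, the largest gap among the members, and each mean includes one of its extreme 8-week replicates.

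The question put to these genes was whether their ratios followed the level of SND2 or the line itself. The arrays give SND2 only as a ratio over wild type, which also depends on SND2 in the wild type stems. The SND2 probe was higher in the line on all 8 arrays. Its log2 ratios were 3.00, 2.95, 2.75 and 3.37 at 4 weeks and 7.17, 7.34, 5.23 and 7.60 at 8 weeks. The mean was 3.03 ± 0.32 (SD, n = 3; 8.18-fold) at 4 weeks and 6.69 ± 1.28 (n = 3; 103.5-fold) at 8 weeks. The study notes a saturated signal for SND2 in its 8-week comparison. The 8-week SND2 ratios, their order over the replicates and the difference between the ages thus rest on a signal at its limit and may be understated. The measured values of the ages did not overlap for SND2, and the measured difference was 3.66 (95% interval 2.20 to 5.12, limma, covering replicate spread only).

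The difference between the ages, 8 minus 4 weeks, was not what the members were chosen on, although each had to be low at both ages, so that a gene whose ratio came near 0 at either age could not have been a member. AT3G01345 was less lowered at 8 weeks by 0.76 (95% interval -0.17 to 1.68). AT3G50380 was less lowered by 0.46 (-0.11 to 1.03) and MRD1 by 0.21 (-0.32 to 0.74). These 3 genes thus had their lower means at 4 weeks, where the SND2 ratio was smaller, but each interval included 0. AT5G03090 was lower at 8 weeks by 0.30 (-0.72 to 0.12) and HEI10 by 0.26 (-1.23 to 0.71), again with intervals that included 0. AT2G14878 differed by -0.01 (-0.32 to 0.30).

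These differences depended on single replicates. Without 4-week replicate 2 that of AT3G01345 was 0.38, and without 8-week replicate 1 it was 0.49. That of AT3G50380 was 0.28 without 8-week replicate 1 and 0.70 without 8-week replicate 2. MRD1 differed by 0.02 without 8-week replicate 1, by 0.12 without 4-week replicate 2 and by 0.39 without 8-week replicate 3. The difference of AT5G03090 was -0.16 without 8-week replicate 2, and HEI10 changed sign, to 0.18, without 8-week replicate 3 and was at -0.66 without 8-week replicate 2.

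None of the members passed for the difference between the ages, and no probe on the array did (0 of 37685, 0%, limma with Benjamini-Hochberg adjustment over all probes). SND2 itself, with an unadjusted p of 0.000694, had an adjusted p of 0.9999 in this fit. At an unadjusted p under 0.05 there were 603 probes, 1.6% of all, and no member. The intervals of the members do not show that the ratios were equal at both ages.

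**Figure D3:**
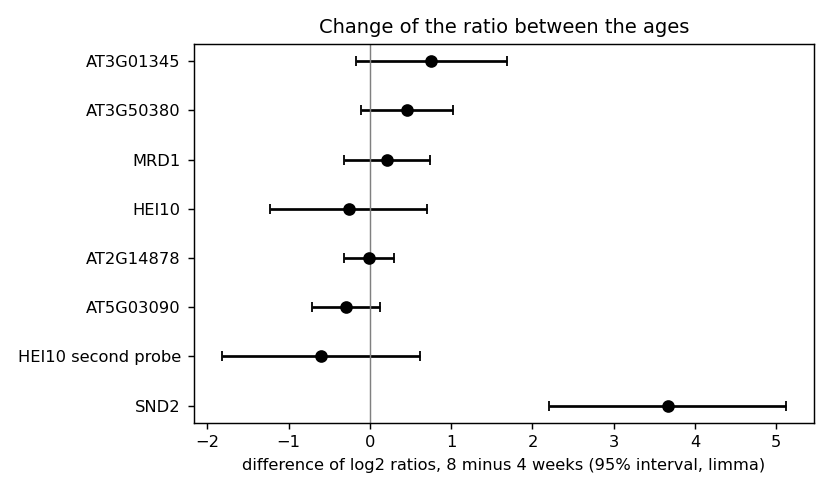
Difference of the log2 ratios, 8 minus 4 weeks (x axis), with its 95% interval from limma over 3 replicates per age, for each member, the second HEI10 probe and SND2 (y axis). The intervals of the 6 members and of the second HEI10 probe include 0, and that of SND2 runs from 2.20 to 5.12.

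Within an age the SND2 ratio varied by replicate as well. At both ages replicate 2 had the line in Cy3 and replicate 3 had it in Cy5. Between these replicates the SND2 ratio, the dye and the replicate itself therefore cannot be told apart. At 8 weeks the measured SND2 ratio was lowest in replicate 2, at 5.23. In that replicate 4 of the 6 members (AT3G01345, AT3G50380, AT2G14878 and AT5G03090) had their lowest 8-week ratio, MRD1 lay between its other values, and HEI10 had its highest. In replicate 3, where the SND2 ratio was highest, MRD1 and HEI10 were at their lowest and AT2G14878 and AT5G03090 at their highest. At 4 weeks the replicates of SND2 spanned a narrower range, from 2.75 in replicate 2 to 3.37 in replicate 3, and in replicate 3 AT3G50380 and AT5G03090 were at their lowest and AT3G01345 and HEI10 at their highest. In 4-week replicate 2, where the SND2 ratio was lowest, AT3G01345 and MRD1 were at their lowest and AT3G50380, AT2G14878 and AT5G03090 at their highest, whereas these last 3 genes were at their lowest in the 8-week replicate with the lowest SND2 ratio. The members therefore did not share one measured order over the replicates, but some of these orders rest on small gaps. HEI10 ran from -0.66 to -0.63 at 4 weeks, and AT2G14878 from -0.74 to -0.63 at 8 weeks. Over all probes, the median gap between the dye-swapped arrays of the same RNA was 0.262 at 4 weeks and 0.248 at 8 weeks. The 6 ratios fall into separate groups by age, so no correlation with SND2 was computed.

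**Figure D4:**
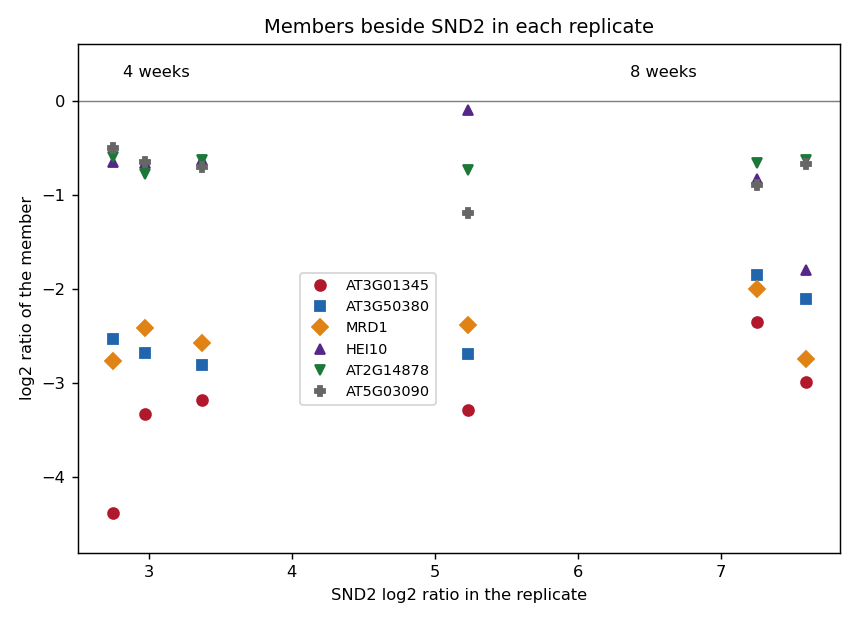
Log2 ratio of each member (y axis) against the log2 ratio of SND2 (x axis) in the 6 replicates, with the dye-swapped pair averaged. The SND2 ratio runs from 2.75 to 7.60. AT3G01345 lies between -4.38 and -2.35, AT3G50380 between -2.81 and -1.86 and MRD1 between -2.76 and -1.999. HEI10 lies between -1.80 and -0.10, AT5G03090 between -1.19 and -0.51 and AT2G14878 between -0.78 and -0.59.

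The few probes that were higher on all arrays give a second setting for these values. Besides SND2, 4 probes (0.0133% of all with SND2 counted) were over 1.5-fold higher on each of the 8 arrays. AT1G20120 was at 2.70 ± 0.42 (SD, n = 3) at 4 weeks and 2.35 ± 0.73 at 8 weeks, AT5G11410 at 1.32 ± 0.25 and 1.52 ± 0.37, GMI1, a gene named for its induction by gamma irradiation, at 0.93 ± 0.02 and 1.04 ± 0.19, and the NAC factor gene NAC103 at 0.77 ± 0.27 and 1.02 ± 0.04. Of the 9 probes past 1.5-fold in one direction on every array, SND2 had a measured age difference of 3.66, with a saturated signal at 8 weeks. The other 8, which include 4 members, had differences from -0.35 to 0.76. These probes had to be past the limit at both ages, and the higher ones were added after their values were seen. Nothing is therefore read from the sizes of these differences.

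Genes next to a member on the chromosome were examined because the rule did not use them. Neighbours were the genes within 10 positions on either side in the gene order of the TAIR10.1 annotation, with all members left out. MRD1 and HEI10 lie within this distance of each other and were both lower, and they are not counted here. Of the neighbours, 22 had a probe with a gene name, 21 of them through the platform annotation. None was lower at both ages or at either age, against 1.52% of all probes at 4 weeks and 2.76% at 8 weeks. Their mean log2 ratios ran from -0.25 to 0.23 at 4 weeks and from -0.26 to 0.78 at 8 weeks, with medians of -0.01 and 0.00. No neighbour passed limma at either age (smallest adjusted p 0.99998 at 4 weeks and 0.99008 at 8 weeks), nor did any reach an unadjusted p under 0.05, which 0.992% of all probes did at 4 weeks and 3.5% at 8 weeks. Since limma called 0 of the 37685 probes at either age, 0%, the adjusted p of a neighbour is of little use alone, and the sizes of the ratios are given.

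The gene directly before AT3G01345, AT3G01340, was at 0.04 ± 0.08 (SD, n = 3) at 4 weeks and -0.07 ± 0.02 at 8 weeks. AT3G01350, 2 positions after it, was at -0.03 ± 0.44 and 0.38 ± 0.48, and AT3G01360, the next, at 0.01 ± 0.22 and -0.08 ± 0.04. None was near the -3.63 and -2.87 of AT3G01345. Around AT3G50380, AT3G50370 (3 positions before) was at 0.05 ± 0.17 and 0.07 ± 0.10, AT3G50340 (6 positions before) was at -0.07 ± 0.14 and -0.08 ± 0.14, and AT3G50430 (6 positions after) was at 0.06 ± 0.20 and -0.04 ± 0.11. The lowering of AT3G50380 was thus not shared by the nearest genes that could be measured.

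At MRD1 the lowering was shared with the adjoining member HEI10. The 2 genes are annotated at overlapping positions on chromosome 1, with a long non-coding RNA gene between them in the order. The table used here gives no strand, so signal from one gene cannot be told apart from signal of the other where they overlap. Their ratios differed in size, with -2.58 against -0.65 at 4 weeks and -2.37 against -0.91 at 8 weeks. Outside the pair, AT1G53450 (4 positions before MRD1) was at -0.02 ± 0.14 (SD, n = 3) at 4 weeks and 0.00 ± 0.14 at 8 weeks, and AT1G53530 (7 positions after it) was at 0.07 ± 0.08 and 0.06 ± 0.20.

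AT2G14880, the gene after AT2G14878, was at -0.01 ± 0.20 (SD, n = 3) at 4 weeks and 0.02 ± 0.07 at 8 weeks, and AT2G14900, 3 positions after it, at -0.09 ± 0.31 and 0.03 ± 0.35. Before it, AT2G14835 was at -0.01 ± 0.14 and 0.04 ± 0.17 and AT2G14830 at -0.01 ± 0.45 and -0.16 ± 0.05. These neighbours were less lowered on average than AT2G14878 at both ages. Before AT5G03090, AT5G03050 was at -0.09 ± 0.29 and -0.11 ± 0.28 and AT5G03030 at -0.05 ± 0.21 and 0.01 ± 0.18. After it, AT5G03110 was at 0.23 ± 0.22 and -0.26 ± 0.32 and JKD, a zinc finger protein gene, at -0.05 ± 0.17 and 0.04 ± 0.06. One neighbour of AT5G03090 had a mean past 1.5-fold at an age, on the higher side. This was FLA11, a fasciclin-like arabinogalactan protein gene of secondary walls, with 0.56, 0.01 and 1.76 in the 8-week replicates and a mean of 0.78 ± 0.89 (SD, n = 3). FLA11 is the neighbour named only through the lists of the study, which chose it on these arrays.

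In a window of 25 positions 49 probes of 48 genes could be read, and 1 of them was lower at both ages. It was AT3G50300, 13 positions before AT3G50380, with the values given above, and its 4-week mean rests on 1 array of replicate 1 at -4.13. The neighbourhoods were sampled thinly, since 3 to 8 of the 20 genes around each member had a named probe, with MRD1 and HEI10 counted for each other.

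**Figure D5:**
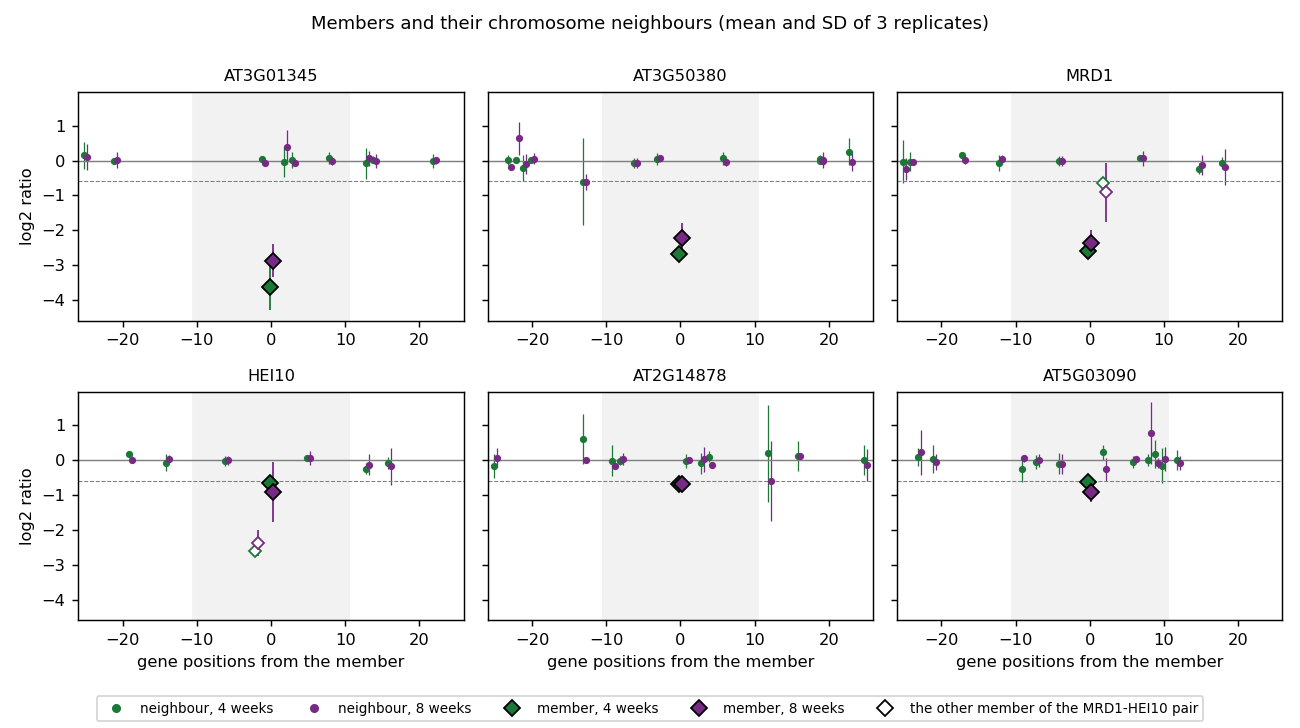
Log2 ratio (y axis, mean and SD of 3 replicates) of each member (filled diamonds) and of the genes around it (circles) by gene positions from the member (x axis), at 4 weeks (green) and 8 weeks (purple), with open diamonds for the other member of the MRD1 and HEI10 pair and a grey band over 10 positions. Circles in the band, which leave out the members, lie between -0.26 and 0.78, and the dashed line marks 1.5-fold lower.

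Genes that work with the members or are related to them were read at the same time. The list for HEI10 held 21 other genes of meiotic crossover formation, of which 2 had a named probe. ZYP1A, a protein of the synaptonemal complex, was at -0.01 ± 0.27 (SD, n = 3) at 4 weeks and -0.72 ± 0.93 at 8 weeks, and SPO11-2, which takes part in making the meiotic double-strand breaks, was at 0.42 ± 0.79 and -0.09 ± 0.12. Neither passed at either age, where limma called 0 of the 37685 probes, and neither was over 1.5-fold lower at both ages. HEI10 was chosen for being lower at both ages, so nothing is read from its contrast with these genes. The list did not hold AHP2, a gene of meiotic recombination that is named only through the study's lists. AHP2 was below 0 at both ages as well, at -0.37 ± 0.10 (SD, n = 3) at 4 weeks and -0.65 ± 0.08 at 8 weeks, past 1.5-fold at 8 weeks only.

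The list for MRD1 held 17 genes of methionine synthesis and use, of which 4 had a named probe. The lowest was MGL, which breaks methionine down, at -0.46 ± 0.47 (SD, n = 3) at 4 weeks and -0.10 ± 0.18 at 8 weeks, and the highest was CBL, which acts in methionine synthesis, at 0.14 ± 0.07 and 0.16 ± 0.33. None of the 4 passed or was changed over 1.5-fold at either age.

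All 3 other genes of the VPS13 family were measured. SHBY was at -0.05 ± 0.11 (SD, n = 3) at 4 weeks and 0.06 ± 0.07 at 8 weeks, AT4G17140 at -0.05 ± 0.23 and -0.21 ± 0.11, and AT1G48090 at 0.10 ± 0.28 and -0.05 ± 0.30. None passed at either age, and AT3G50380, which was chosen for its low ratios, was the family member with a ratio past 1.5-fold.

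Likeness between genes was measured as the root mean square difference of the 6 replicate log2 ratios, a description over few arrays. Among the members the closest were AT2G14878 and AT5G03090 (0.220) and MRD1 and AT3G50380 (0.343). AT3G01345 lay 0.897 from MRD1 and 0.945 from AT3G50380. Outside the members the nearest named probes to MRD1 were ERF13, an ethylene response factor gene, at 1.65, RPL15, a ribosomal protein gene, at 1.69 and AT5G15880 at 1.81. Those nearest to AT3G50380 were RPL15 at 1.71, QQS at 1.75 and ERF13 at 1.76. Those nearest to AT3G01345 were AT5G15880 at 2.42, ERF13 at 2.49 and RPL15 at 2.53. The measure uses the same ratios on which the members were chosen and grows with the size of a ratio, so nothing is read from the nearness of the 3 strongly lowered genes to each other.

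The members lowered by smaller factors had closer company. AT2G14878 was nearest to AT5G08050, at 0.186, which was at -0.64 ± 0.13 (SD, n = 3) at 4 weeks and -0.50 ± 0.14 at 8 weeks, followed by AT5G43440 at 0.246 and by AHP2, a gene of meiotic recombination, at 0.255. AT5G03090 was nearest to RPL15, at 0.313, followed by AHP2 at 0.346 and AT5G13720 at 0.360. HEI10 was nearest to AT3G24255, at 0.355, AT2G40435, at 0.388, and AT3G51750, at 0.409, and its own second probe lay farther away, at 0.606. The probes nearest to that second probe were ERF13 at 0.389, AT4G38080 at 0.562 and RPL15 at 0.567.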

How the data were processed

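The authors deposited normalized log2 ratios, with the SND2-OV(A) signal over that of wild type, for 37685 probes and 8 arrays. Per the methods, slides were scanned on a GenePix instrument, extracted in GenePix Pro and normalized in R with limma. The scale and centring are the authors' own. The direction rests on the SND2 probe, positive on all 8 arrays in both dye orientations. No intensities were used, so signal over background is unknown and the number of arrays limits the precision.

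The platform annotation named 7440 probes, and gene identifiers in the study's supplementary lists named 188 more. MRD1, HEI10, AT2G14878 and AT5G03090 are named only in the latter way, that is, because the study listed them. The RefSeq table (TAIR10.1) gave gene order. The dye-swapped pair was averaged, leaving n = 3 separate pools per age. limma 3.58.1 (R 4.3.3) was fitted per age and, for 8 minus 4 weeks, to all 6 ratios. Calls needed a Benjamini-Hochberg adjusted p under 0.05 and a fold over 1.5. The fit was tested on simulated data. Python 3.11.15 made tables and figures. The members and gene lists were chosen with earlier results of these data known. Named were the members, SND2, the 2 nearest named neighbours on each side (where there were 2), the 10 lowest other probes, the 3 probes most like each member, and the highest and lowest gene of each list. Genes higher on all arrays and the VPS13 family were added after their values were seen. Alternatives covered the pair, dyes, centring, scale, spread, thresholds, replicates left out and the replicate block. The authors' fold changes and p-values were not used.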

Additional observations from a re-analysis of the deposited data

Results flagged for a closer look

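In a group of 4 arrays, an array was singled out where its gap to the nearest other array took more than 0.829 of the whole range. Of 80 groups tested (members, neighbours and the lowest other probes at each age), 9 were singled out. Chance gives about 1 in 20 for groups not chosen on their values. The lowest other probes were chosen for low means, which a single low array can produce, so that rate does not hold for them. None of the 9 belonged to a member, but the members were chosen on these ratios too, so nothing is read from this. The 8-week array of the dye-swapped pair that carried the line in Cy5 was far below the others for AT5G16960 (-6.57), AT3G05260 (-10.7), AT3G55580 (-10.8) and AT2G42005 (-2.92). Replicate 2 at 4 weeks was far below the others for AT5G15880 (-2.63) and AT2G42005 (-1.996) and above them for AT2G14835 (0.15), a neighbour of AT2G14878. The 4-week array of the pair that carried the line in Cy5 was low for AT3G50300 (-4.13). AT3G01350, a neighbour of AT3G01345, was low in 8-week replicate 3 (-0.17).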

How the results depend on the processing

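The mean log2 ratios of the members and the second HEI10 probe gave 105 values under alternatives, none changed sign, and 102 were past 1.5-fold lower. The exceptions were AT5G03090 without 4-week replicate 3 (-0.58), HEI10 without 8-week replicate 3 (-0.47) and the second HEI10 probe without 4-week replicate 2 (-0.29). Of 70 such values of the age differences none passed, and 7 changed sign. MRD1 moved from 0.21 to -0.0399 with arrays centred and scaled. HEI10 moved from -0.26 to between -0.664 and 0.182 with a replicate left out (0.182 without 8-week replicate 3). AT2G14878, at -0.01, was at 0.0234 with the pair as separate arrays, at 0.0316 with arrays centred, and between -0.0659 and 0.0277 with a replicate left out. Probes lower at both ages numbered 44, 5 at a fold of 2, and 32 to 137 with a replicate left out (137 without 4-week replicate 3 and 70 without 8-week replicate 3). No probe passed at 4 weeks, but 2 did with the pair as separate arrays, AT3G50380 (limma adjusted p 0.0293) and SND2 (0.0401). At 8 weeks 0 passed and 0 to 3 did with a replicate left out, namely AT3G01345 (0.0251), MRD1 (0.0396) and SND2 (0.0396) without replicate 1 and SND2 (0.0090) without replicate 2. The arrays of the pair carry the same RNA, so the 4-week setting counts that RNA more than once, and its p-values cannot be taken at face value. The 8-week calls rest on the replicates that remained. The calls of members are not independent of how the members were chosen. Neighbours lower at both ages, with members left out, numbered 0, and 1 in the window of 25 positions. The cause of these shifts was not tested. With the replicate number as a block, 0 probes passed between the ages, as without it. Same-numbered replicates of the ages correlated at -0.02, 0.12 and 0.16 across probes. The dye-swapped arrays of the same RNA correlated at only 0.06 at 4 weeks and 0.09 at 8 weeks. Such correlations therefore cannot tell whether same-numbered samples share more than a number.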

Other observations

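Of the 10 lowest named probes other than the members, RPL15, a ribosomal protein gene, and AT5G15880 were below 0 on all 8 arrays. The mean log2 ratio of RPL15 was -0.63 ± 0.16 (SD, n = 3) at 4 weeks and -1.005 ± 0.31 at 8 weeks, a spread like that of AT5G03090. RPL15 is named only through the study's lists. QQS, a gene that acts on starch content, was at -0.67 ± 0.98 and -0.96 ± 0.45 and was below 0 on 7 arrays. AT5G16960 (-0.99 ± 1.03 and -1.23 ± 1.76) and AT5G15880 (-0.97 ± 1.44 and -0.89 ± 0.88) had larger SDs than RPL15 had. AT3G55580 (-0.68 ± 0.62 and -2.41 ± 2.72) and AT3G05260 (-0.77 ± 0.80 and -1.90 ± 3.07) had the lowest means of these probes at 8 weeks. Both means rest largely on the 1 wide array, at -10.8 and -10.7. In 8-week replicates 2 and 3 AT3G55580 was at -1.46 and -0.30, and AT3G05260 was at 0.16 and -0.44. AT3G26920 (-0.75 ± 1.08 and -0.62 ± 0.85) and AT5G49180 (-0.61 ± 0.99 and -0.86 ± 0.72) were inside the limit as well.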
